A study of Homo sapiens with 9 samples.

Results

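Respiratory complex I, the mitochondrial NADH dehydrogenase, was described here through the transcripts of its nuclear-encoded subunits and of its assembly factors, which build the enzyme without being part of it. Members were all genes whose symbol starts with NDUF in the array's annotation, with ACAD9, ECSIT, FOXRED1, NUBPL and TIMMDC1 added. A gene counted where a probe set named it alone. This gave 39 of 14207 measured genes, of which 27 were subunits and 12 were assembly factors. The rule used symbols only and no measured value. A further 9 NDUF symbols, among them the core subunit NDUFS1 and the membrane arm subunits NDUFB8 and NDUFA13, lay only on probe sets shared with other genes and were kept apart.

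ARPE-19 is an established line of human retinal pigment epithelium, the cell layer that nourishes the photoreceptors. Cells grown to confluence were kept in medium with bovine serum albumin and received either vehicle or a commercial condensate of cigarette smoke, dissolved in DMSO by its maker, at 100 or 250 µg/ml. Total RNA of each of the 3 groups was read on 3 exon arrays, numbered 1 to 3. The sources used here do not give the length of the treatment. Nothing in the labels tells whether the 3 arrays of a group were 3 cultures, so the p-values rest on a spread between arrays that may be technical only. The series title asks about oxidative stress and mitochondrial dysfunction, and complex I is a component of that question.

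Complex I takes electrons from NADH, passes them along a chain of iron-sulfur clusters to ubiquinone and pumps protons across the inner mitochondrial membrane. Its matrix arm consists of the N module, where NADH binds, and the Q module, where ubiquinone is reduced. Its membrane arm has a proximal part next to the Q module and a distal part, and its proton-pumping core subunits are encoded in mitochondrial DNA. The enzyme is a main site of superoxide formation, and the retinal pigment epithelium depends on mitochondrial respiration. Arrays read RNA, so neither the assembled enzyme nor its activity was measured. RNA from a whole culture also cannot tell fewer cells of a type from less RNA per cell.

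No member passed the test at either dose. All differences are log2 differences between group means of the deposited log2 values, fitted with limma over the 9 arrays and adjusted by the Benjamini-Hochberg method over 14207 genes, with a threshold of 0.05. At 100 µg/ml against control 0 of 39 members passed, where 0.0633% of all genes did. At 250 µg/ml against control 0 of 39 passed, where 0.549% of all genes did. Between 250 and 100 µg/ml 0 of 39 passed, and the share of all genes was 0%. At an unadjusted limma p under 0.05 the members counted were 2, 4 and 1 in these comparisons, beside 14.6%, 16.6% and 1.84% of all genes. The members' share at this limit, 2 of 39 and 4 of 39, was below that of all genes at both doses.

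The precision of these arrays set what could be seen. The 95% limma intervals of the members' differences had a median reach of 0.55 on the log2 scale to either side, from 0.31 for the steadiest member to 1.00 for the least steady. The whole interval lay within a 2-fold change in either direction for 30 of 39 members at 100 µg/ml and for 29 of 39 at 250 µg/ml. For the remaining members, among them NDUFA1, NDUFA6, NDUFA8, NDUFA9, NDUFB9 and NDUFAF1 at both doses, a change of 2-fold lay inside the interval.

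One array stood apart for the members and bears on every comparison with control. Control replicate 1 gave the lowest of the 3 control values for 24 of 27 subunits (88.9%) and for 10 of 12 assembly factors (83.3%), where this array was the lowest for 41% of all genes. The log2 difference of this array from the mean of the other control arrays had a median of -0.72 over subunits and of -0.58 over assembly factors, beside -0.05 over all genes. The exceptions among subunits were NDUFA5, NDUFS8 and NDUFB3. The exceptions among assembly factors were ACAD9 and NDUFAF7. Its median over all probe sets, 4.42, was the lowest of the 9 arrays, which ran up to 4.59. Whether the state of the RNA, of the culture or of the array lay behind this was not tested.

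**Figure D1:**
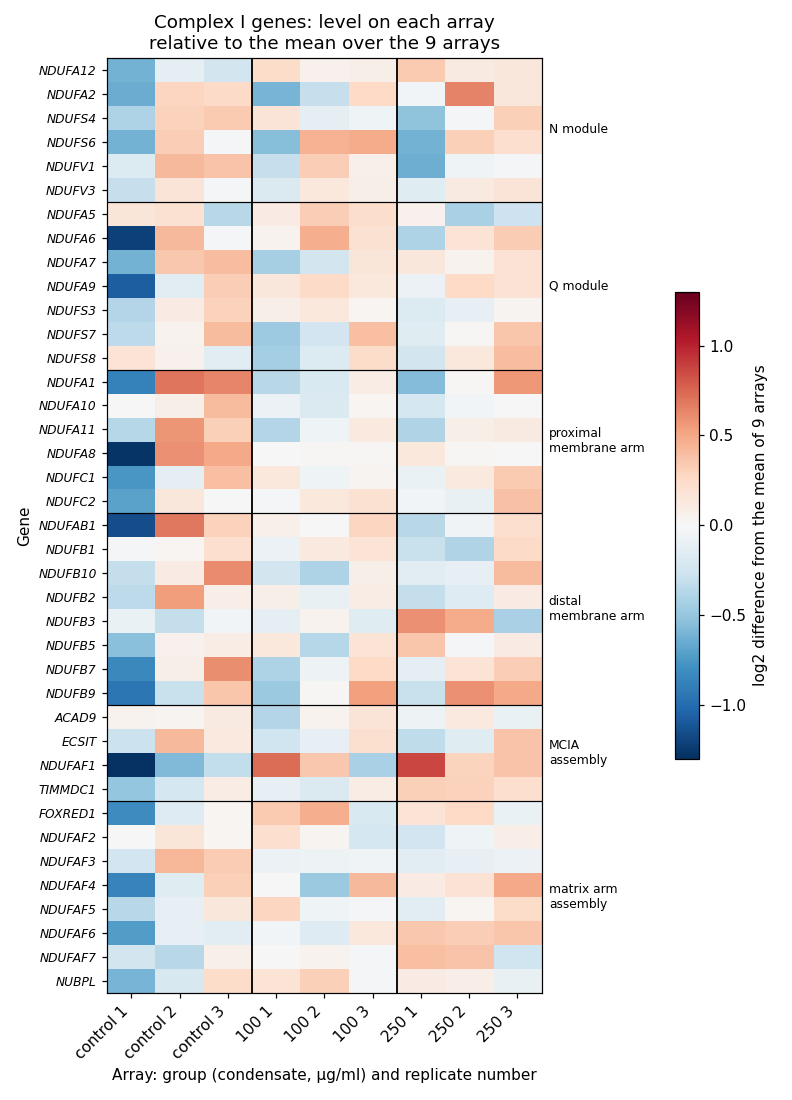
Level of each of the 39 members (rows, grouped by role) on each of the 9 arrays (columns), as the log2 difference from that gene's mean over the 9 arrays (colour scale). The column of control replicate 1 is mostly blue, being the lowest control array for 24 of 27 subunits and 10 of 12 assembly factors.

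The subunits whose control arrays lay furthest apart come from all parts of the enzyme except the N module, and are named here after their values were seen. NDUFA8, a subunit on the intermembrane space side of the proximal arm, read 5.29 on control replicate 1 and 7.17 and 7.06 on the others. On the 6 condensate arrays NDUFA8 lay between 6.57 and 6.71, inside the gap between the controls. NDUFAB1, the mitochondrial acyl carrier protein, differed by -1.65 between control replicate 1 and the mean of the other controls, and NDUFA6, the subunit that docks it to the Q module, by -1.41. NDUFA1, NDUFB7 and NDUFA9 differed by -1.55, -1.17 and -1.16. These 6 subunits were the only ones with a gap over 1 on the log2 scale, and no assembly factor had one. The median SD among control arrays was 0.45 for subunits and 0.35 for assembly factors, beside 0.21 for all genes. At 100 µg/ml it was 0.17 for subunits, near the 0.18 of all genes, and at 250 µg/ml it was 0.27 beside 0.16.

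The arrays numbered 1 at both doses also tended to read low for subunits. Replicate 1 was the lowest array for 16 of 27 subunits at 100 µg/ml, where it was for 28.8% of all genes, and for 19 of 27 at 250 µg/ml, where it was for 30.6%. For 10 of 27 subunits (37%) the array numbered 1 was the lowest in all 3 groups, beside 9.8% of all genes. Among these were the NADH-binding NDUFV1 and the iron-sulfur subunit NDUFS7. Replicate 3 was the highest array for 16 of 27 subunits at 100 µg/ml and for 18 of 27 at 250 µg/ml, beside 33.1% and 39.9% of all genes. For assembly factors replicate 1 was the lowest array for 3 of 12 at 100 µg/ml and for 5 of 12 at 250 µg/ml. Relative to their mean over the 9 arrays, the subunits averaged -0.53, 0.19 and 0.22 on control replicates 1, 2 and 3. They averaged -0.15, -0.00 and 0.16 at 100 µg/ml and -0.16, 0.07 and 0.19 at 250 µg/ml. For the subunits the spread between arrays of one group was therefore wider than any difference between the group averages.

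**Figure D2:**
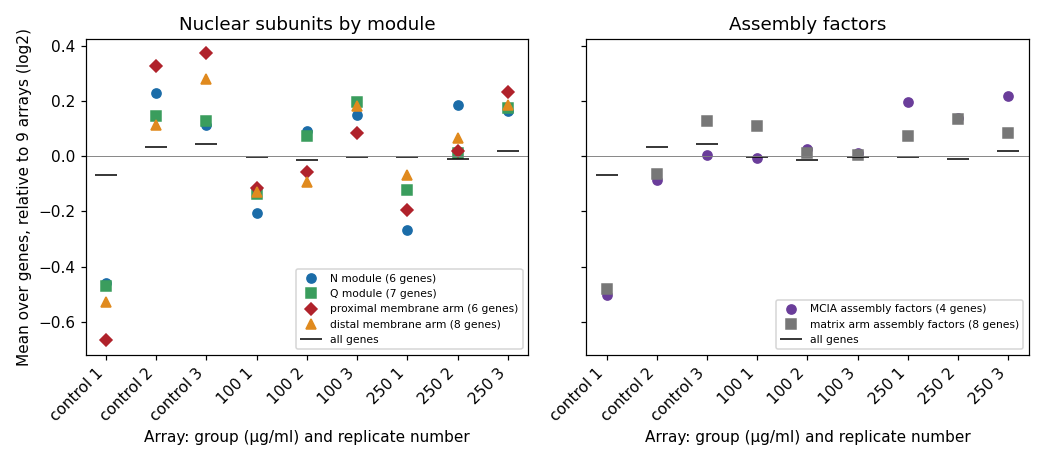
Mean log2 level of the measured genes of each module (left) and of each class of assembly factor (right) on each of the 9 arrays, relative to the mean of the same genes over all arrays, with all 14207 genes as black bars. On control replicate 1, which enters the mean set to 0, the 6 classes lie between -0.67 and -0.46 and all genes at -0.07. Both classes of assembly factor lie above 0 on the 3 arrays at 250 µg/ml. The matrix arm class also lies above 0 at 100 µg/ml (0.109, 0.014 and 0.004). On control replicate 3 it lies at 0.126, above its 0.075 and 0.084 on replicates 1 and 3 at 250 µg/ml.

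As lists the subunits stayed near the other genes. The median difference of the 27 subunits was 0.06 at 100 µg/ml, with 15 of 27 higher than control, and 0.08 at 250 µg/ml, with 16 of 27 higher. The median over all genes was -0.05 and -0.04, with 40.8% and 42.7% of genes higher. Without control replicate 1 the subunit medians turned to -0.12 and -0.18, and only 6 and 7 of 27 subunits were higher. The medians of all genes were then -0.07 and -0.06, with 5601 and 5717 of 14207 genes higher. The subunit median also turned without replicate 3 at 250 µg/ml, to -0.047 with 13 of 27 higher, and came to -0.0046 without replicate 2 at 100 µg/ml, so its sign did not hold over these fits. Assembly factors had medians of 0.18 and 0.28, with 8 of 12 higher at each dose, and of 0.02 and 0.10 without control replicate 1, with 6 and 8 of 12 higher.

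In the N module 6 of 8 subunits were measured alone, and their median difference was -0.01 at the lower dose and 0.09 at the higher. NDUFA12, an accessory subunit that takes the place of the assembly factor NDUFAF2 late in assembly, read 6.73, 7.22 and 7.11 on the control arrays. It read 7.59, 7.40 and 7.42 at 100 µg/ml and 7.69, 7.46 and 7.50 at 250 µg/ml. All 6 condensate arrays lay above all 3 controls, and NDUFA12 was the only subunit of which this held at either dose. Arrays that did not overlap, with condensate above control, were seen for 6.41% of all genes at 100 µg/ml and for 8.61% at 250 µg/ml, and no member had its arrays below control, as 11.9% and 14.3% of all genes did. The difference was 0.45 ± 0.14 (SE, n = 3 against 3) at 100 µg/ml (limma adjusted p = 0.249). It was 0.53 ± 0.14 at 250 µg/ml (limma adjusted p = 0.137). Both had an unadjusted p under 0.05. Without control replicate 1 these differences were 0.30 and 0.39.

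NDUFV1, the core subunit that holds the NADH site and the flavin, had the most negative difference of any member at 250 µg/ml. Its values were 8.76, 9.35 and 9.31 in control, 8.64, 9.25 and 9.01 at 100 µg/ml and 8.30, 8.88 and 8.92 at 250 µg/ml. The groups overlapped, and replicate 1 was the lowest array in each of them. The difference was -0.17 ± 0.24 at 100 µg/ml (limma adjusted p = 0.768) and -0.44 ± 0.24 at 250 µg/ml (adjusted p = 0.394). Without control replicate 1 it was -0.36 and -0.63. Comparing arrays of the same number, NDUFV1 was lower at 250 than at 100 µg/ml by -0.34, -0.38 and -0.08, and the difference between the doses was -0.27 ± 0.24 (limma adjusted p = 1). NDUFA2, an accessory subunit of the same module, had the most positive difference of any member between the doses, 0.47 ± 0.31 (limma adjusted p = 1). It read 7.28, 7.58 and 8.14 at 100 µg/ml and 7.85, 8.52 and 8.03 at 250 µg/ml, so that the doses overlapped. Against control NDUFA2, NDUFS4, NDUFS6 and NDUFV3 had differences between -0.18 and 0.29 over both doses, each with overlapping arrays.

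In the Q module 7 of 8 subunits were measured alone, and the list medians were 0.07 at each dose. The core subunits NDUFS3, NDUFS7 and NDUFS8, which form the core next to ubiquinone, differed from control by between -0.16 and 0.07. NDUFS3 read 8.75, 9.23 and 9.42 in control, 9.21, 9.26 and 9.16 at 100 µg/ml and 8.95, 9.02 and 9.16 at 250 µg/ml. Its differences of 0.07 ± 0.17 and -0.09 ± 0.17 had limma adjusted p-values of 0.870 and 0.809, and that between the doses was -0.17 ± 0.17 (adjusted p = 1). With NDUFV1, the 4 core subunits measured had medians of -0.15 and -0.03.

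NDUFA9, which sits where the matrix arm meets the membrane arm, shows how much single control arrays weighed. It read 7.51, 8.44 and 8.90 in control, 8.73, 8.83 and 8.72 at 100 µg/ml and 8.51, 8.84 and 8.78 at 250 µg/ml. The condensate arrays lay within a narrow band inside the range of the controls. The differences of 0.48 ± 0.30 and 0.43 ± 0.30 (limma adjusted p = 0.489 and 0.503) became 0.09 and 0.04 without control replicate 1.

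NDUFA5, an accessory subunit of the same module, was the only member with a limma p under 0.05 between the doses. It read 6.05, 6.08 and 5.52 in control, 6.00, 6.21 and 6.11 at 100 µg/ml and 5.94, 5.46 and 5.61 at 250 µg/ml. Every array at 250 µg/ml lay below every array at 100 µg/ml, as for 2.86% of all genes, while both doses overlapped the controls. The difference between the doses was -0.43 ± 0.18 (limma adjusted p = 1). Arrays of the same number differed by -0.05, -0.74 and -0.50. The other Q module subunits, NDUFA6 and NDUFA7, differed from control by 0.51 and -0.22 at 100 µg/ml and by 0.31 and 0.08 at 250 µg/ml, with overlapping arrays. Between the doses NDUFA7 differed by 0.30 ± 0.27 (limma adjusted p = 1).

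The proximal membrane arm had 6 of 9 subunits measured alone and medians of -0.08 and -0.02. NDUFA10, a subunit related to nucleoside kinases, read 7.07, 7.16 and 7.49 in control, 7.01, 6.89 and 7.11 at 100 µg/ml and 6.85, 7.04 and 7.08 at 250 µg/ml. Its differences were -0.24 ± 0.14 and -0.25 ± 0.14 (limma adjusted p = 0.451 and 0.398), with arrays of both doses overlapping the lowest control. NDUFA11, a membrane subunit that helps join complex I to other respiratory complexes, differed by -0.28 ± 0.26 at 100 µg/ml (limma adjusted p = 0.647) and by -0.23 ± 0.26 at 250 µg/ml. NDUFC1 and NDUFC2 differed by between 0.21 and 0.29. NDUFA1 and NDUFA8 had the widest intervals, reaching 1.00 to either side for NDUFA1, and their differences lay between -0.30 and 0.11. Without control replicate 1 this arm's median was -0.43 at the lower dose and -0.41 at the higher, further from 0 than that of the other modules, and still no member passed.

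The distal membrane arm had 8 of 12 subunits measured alone and medians of 0.04 and 0.08. NDUFB10, an intermembrane space subunit held by disulfides, read -0.33 ± 0.25 against control at 100 µg/ml and -0.08 ± 0.25 at 250 µg/ml (limma adjusted p = 0.571 and 0.888). NDUFB9, which docks the acyl carrier protein to this arm, differed by 0.31 ± 0.39 and 0.56 ± 0.39 (adjusted p = 0.737 and 0.497). NDUFB1, a small membrane-spanning subunit, differed by 0.00 ± 0.17 and -0.21 ± 0.17 (adjusted p = 0.996 and 0.564). NDUFB3 read below the lower quartile of all genes on 7 of 9 arrays, so that its difference of 0.36 at 250 µg/ml comes from a dim probe set. NDUFAB1, NDUFB2, NDUFB5 and NDUFB7 had differences from control between -0.22 and 0.28. Between the doses NDUFB3 differed by 0.30 ± 0.25, NDUFB1 by -0.22 ± 0.17 and NDUFB2 by -0.15 ± 0.22, each with a limma adjusted p of 1.

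**Figure D3:**
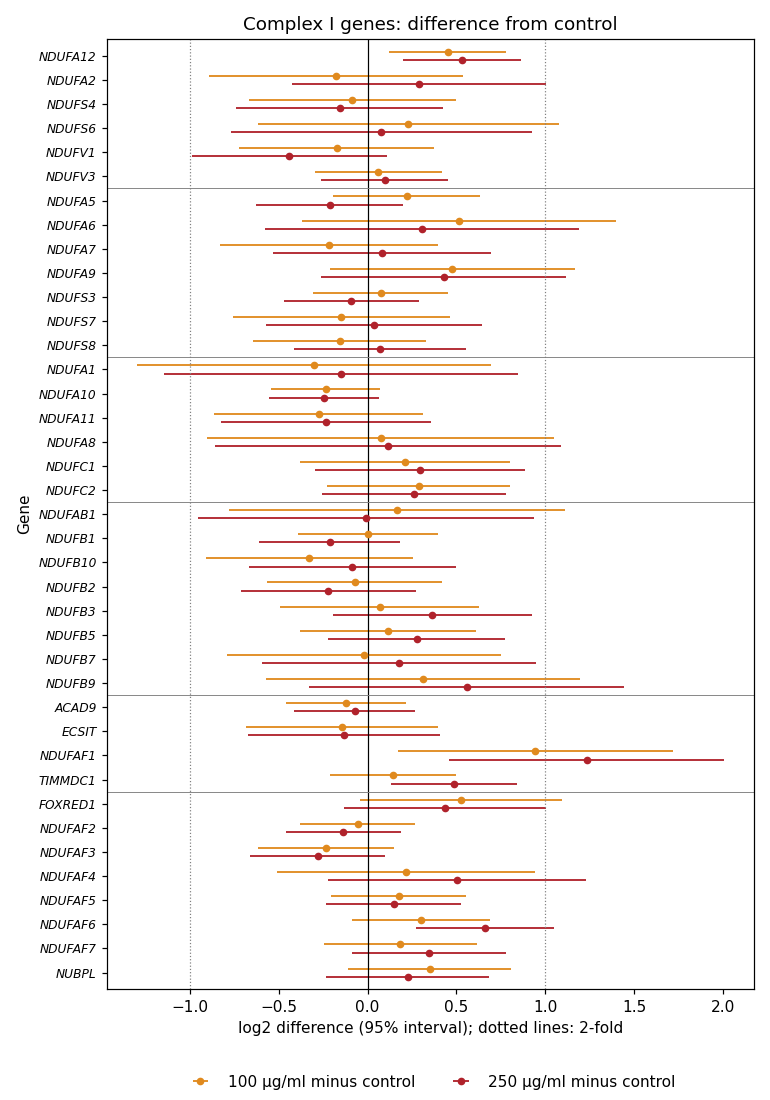
Log2 difference from control of each of the 39 members at 100 µg/ml (orange) and 250 µg/ml (red), with the 95% limma interval as a bar and dotted lines at a 2-fold change. The intervals exclude 0 for NDUFA12 and NDUFAF1 at 100 µg/ml and for NDUFA12, NDUFAF1, TIMMDC1 and NDUFAF6 at 250 µg/ml, and none of these passed after adjustment over all genes.

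Assembly factors gave 3 of the 4 members whose arrays at 250 µg/ml all lay above the controls. These were 4 of 39 members, beside 8.61% of all genes. NDUFAF1, ACAD9, ECSIT and TIMMDC1 were listed here as factors of the membrane arm, under what is called the MCIA complex. TMEM126B and TMEM186, partners of NDUFAF1 outside the rule for members, are given further below. NDUFAF1 read 3.96, 4.67 and 4.91 in control, 5.96, 5.59 and 4.82 at 100 µg/ml and 6.10, 5.52 and 5.61 at 250 µg/ml. At 250 µg/ml all arrays exceeded all controls, and at 100 µg/ml replicate 3 lay among the controls. The difference was 0.94 ± 0.34 at 100 µg/ml (limma adjusted p = 0.274). At the higher dose it was 1.23 ± 0.34, a 2.35-fold change with a 95% interval from 0.46 to 2.00 on the log2 scale (limma adjusted p = 0.138), and the unadjusted p was under 0.05 at both doses. This was the largest difference of any member, and it was 0.67 and 0.95 without control replicate 1.

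TIMMDC1, a membrane protein that tethers early pieces of the membrane arm, read 9.35, 9.62 and 9.94 in control and 9.74, 9.66 and 9.95 at 100 µg/ml. At 250 µg/ml it read 10.16, 10.15 and 10.07, above all 6 other arrays. The difference from control was 0.14 ± 0.16 at 100 µg/ml (limma adjusted p = 0.696), and without control replicate 1 it was -0.00. It was 0.49 ± 0.16 at 250 µg/ml (limma adjusted p = 0.179, unadjusted p under 0.05), and 0.34 without that array. Between the doses it was 0.34 ± 0.16 (limma adjusted p = 1), and arrays of the same number differed by 0.42, 0.49 and 0.12.

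The partners ACAD9 and ECSIT in the same complex had differences nearer 0. ACAD9, an acyl-CoA dehydrogenase that serves complex I assembly, read 8.014, 8.002 and 8.088 in control, 7.59, 8.02 and 8.13 at 100 µg/ml and 7.90, 8.10 and 7.88 at 250 µg/ml. Its differences were -0.12 ± 0.15 and -0.07 ± 0.15 (limma adjusted p = 0.732 and 0.829). ECSIT, known also as an adaptor in Toll receptor signalling, read 4.36, 5.07 and 4.77 in control, 4.39, 4.53 and 4.85 at 100 µg/ml and 4.31, 4.48 and 5.01 at 250 µg/ml. Its differences were -0.14 ± 0.24 and -0.13 ± 0.24 (limma adjusted p = 0.815 and 0.808). Without control replicate 1 the difference of ECSIT at 100 µg/ml was -0.33, further from 0 than that of TIMMDC1. Leaving out 1 array at a time, ECSIT ran from -0.34 to 0.036 at 250 µg/ml. Differences between members of the complex were not tested.

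Of the remaining assembly factors, listed here under the matrix arm though some may act elsewhere, 8 of 9 were measured, with medians of 0.20 and 0.28. NDUFAF6, needed early in assembly, read 4.16, 4.78 and 4.75 in control, 4.85, 4.72 and 5.02 at 100 µg/ml and 5.23, 5.21 and 5.24 at 250 µg/ml. Its 3 values at 250 µg/ml lay close together (SD 0.019) and above all other arrays. The difference was 0.30 ± 0.17 at 100 µg/ml (limma adjusted p = 0.445) and 0.66 ± 0.17 at 250 µg/ml, with a 95% interval from 0.27 to 1.05 (limma adjusted p = 0.116, unadjusted p under 0.05). These were 0.10 and 0.46 without control replicate 1. Between the doses it was 0.36 ± 0.17 (limma adjusted p = 1), and arrays of the same number differed by 0.38, 0.48 and 0.22. Between the doses NDUFAF6 and TIMMDC1 were the members with all arrays higher at 250 µg/ml, as for 3.32% of all genes.

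FOXRED1, an oxidoreductase-like factor for later stages, read 4.16, 4.81 and 5.001 in control, 5.32, 5.45 and 4.78 at 100 µg/ml and 5.15, 5.23 and 4.89 at 250 µg/ml. Its differences were 0.52 ± 0.25 and 0.44 ± 0.25 (limma adjusted p = 0.376 and 0.412), with 1 array at each dose among the controls. NUBPL, which supplies iron-sulfur clusters to the enzyme, differed by 0.35 ± 0.20 and 0.22 ± 0.20 (limma adjusted p = 0.451 and 0.601). NDUFAF7, a methyltransferase of the mitochondrial matrix, differed by 0.18 and 0.35 (adjusted p = 0.680 and 0.396). NDUFAF3, which works on the Q module together with NDUFAF4, differed the other way, by -0.23 ± 0.17 and -0.28 ± 0.17 (limma adjusted p = 0.536 and 0.431).

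The case of NDUFAF3 turned on control replicate 1. It read 5.65 and 5.56 on control replicates 2 and 3 and between 5.08 and 5.18 on all 6 condensate arrays. Without control replicate 1 its differences were -0.44 at 100 µg/ml and -0.49 at 250 µg/ml (limma adjusted p = 0.151 and 0.0705). Its partner NDUFAF4 differed by 0.21 and 0.50 (adjusted p = 0.788 and 0.456), and NDUFAF5, which modifies NDUFS7, by 0.18 and 0.15. NDUFAF2 read below the lower quartile of all genes on 9 of 9 arrays. Its probe set also has a number whose neighbours in the numbering belong to genes of chromosome 2, while RefSeq places the gene on chromosome 5, so its differences of -0.06 and -0.14 may not be those of this gene.

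**Figure D4:**
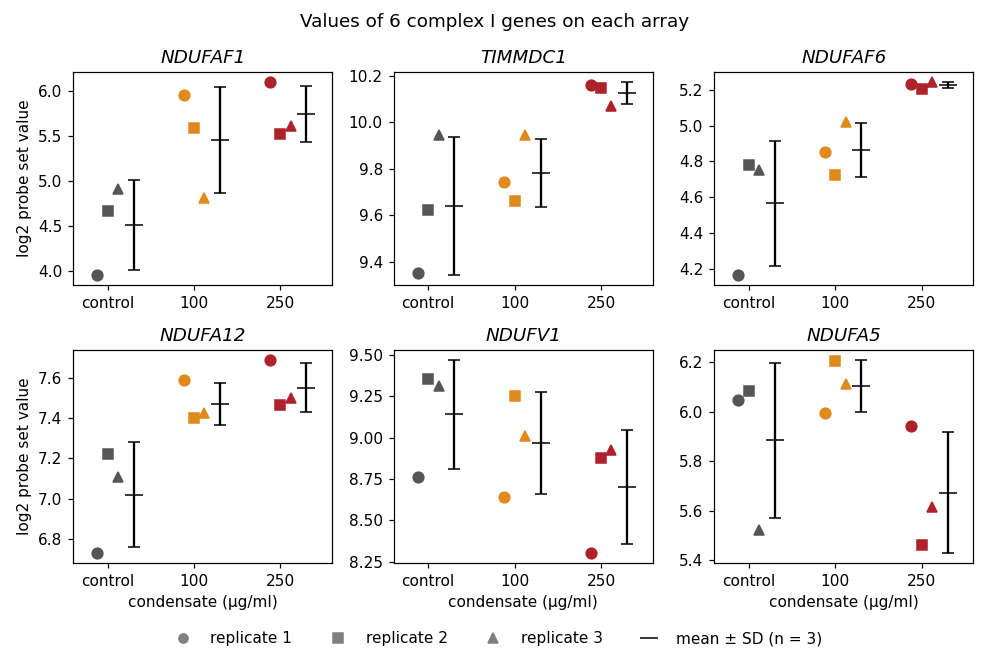
Log2 values of 6 members on each array by group, with the replicate number as the symbol and the mean ± SD (n = 3) as a bar beside them. All arrays at 250 µg/ml lie above all controls for NDUFAF1, TIMMDC1, NDUFAF6 and NDUFA12, and overlap the controls for NDUFV1 and NDUFA5.

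The members whose arrays did not overlap between control and 250 µg/ml, 4 of 39 above and 0 of 39 below, stand beside 8.61% of all genes above and 14.3% below. Promoters are shown for those of them that the RefSeq promoter windows of build GRCh38.p14 hold, NDUFA12, NDUFAF1 and TIMMDC1. Each is the stretch of 250 bases before the gene's start, read 5′ to 3′ along the gene's strand, with every match to a searched motif on either strand in capitals. NDUFA12 lies on chr12:95003698-95003947 (minus strand), NDUFAF1 on chr15:41402497-41402746 (minus strand) and TIMMDC1 on chr3:119498297-119498546 (plus strand).
NDUFA12: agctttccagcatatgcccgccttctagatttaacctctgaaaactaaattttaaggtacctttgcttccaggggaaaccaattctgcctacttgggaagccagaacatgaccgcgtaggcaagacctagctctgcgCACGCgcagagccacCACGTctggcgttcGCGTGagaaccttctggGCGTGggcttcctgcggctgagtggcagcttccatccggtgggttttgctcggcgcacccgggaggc
NDUFAF1: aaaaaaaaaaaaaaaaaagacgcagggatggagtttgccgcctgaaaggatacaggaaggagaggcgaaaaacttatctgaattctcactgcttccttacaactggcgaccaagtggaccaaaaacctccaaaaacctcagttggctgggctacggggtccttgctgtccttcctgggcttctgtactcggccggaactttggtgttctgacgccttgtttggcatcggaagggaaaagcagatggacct
TIMMDC1: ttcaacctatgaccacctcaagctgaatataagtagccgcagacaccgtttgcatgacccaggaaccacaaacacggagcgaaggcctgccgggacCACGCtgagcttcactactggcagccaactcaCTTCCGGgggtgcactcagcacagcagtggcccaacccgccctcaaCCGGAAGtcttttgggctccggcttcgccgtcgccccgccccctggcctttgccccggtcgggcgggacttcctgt

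The capitals in NDUFA12 mark 3 matches to GCGTG, the core bound by the aryl hydrocarbon receptor, which senses compounds of smoke, and 1 match to ACGTG, the hypoxia core. Those in TIMMDC1 mark 2 matches to CCGGAAG, bound by ETS factors such as GABPA, a known regulator of respiratory genes, and 1 match to GCGTG. NDUFAF1 held none of the motifs. Over the 34 members with a window (43 windows in all), GCGTG occurred in 53.5% of windows beside 32.2% of 35116 windows of all genes, and ACGTG in 23.3% beside 18.5%. CCGGAAG occurred in 11.6% beside 8.52%, and GCATGCG, part of the site of NRF1, in 9.3% beside 3.39%. AAGATGG, the letters searched for YY1, occurred in 2.33% beside 3.7%, and TGACNNNGC, the core of the antioxidant response element, in 11.6% beside 10.9%. Both strands were searched, and matches to different motifs may overlap. A match is a run of letters and not a measured site, and base composition was not matched between the windows.

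The subunits tended to read high or low together on the same arrays. The correlation of each subunit with the mean of the other subunits over the 9 arrays had a median of 0.76, from -0.40 for NDUFA5 to 0.93 for NDUFB7, and exceeded 0.5 for 21 of 27. Other genes had a median correlation of 0.02 with the same mean, and 17% of them exceeded 0.5. Assembly factors had a median of 0.52, with 7 of 12 above 0.5, and NDUFAF1 was at 0.20. NDUFA12, whose arrays separated by treatment, was at 0.33. These are descriptions over arrays that share groups, numbers and the low control array. The 5 genes most like the subunit mean were SNAP23, ZNF287, FAM32A, MRPS17 and COX6B1, at 0.96 to 0.97. COX6B1 encodes a subunit of complex IV and MRPS17 a protein of the mitochondrial ribosome.

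Other genes of the pathway gave no call either. Of the subunits in mitochondrial DNA, ND5 and ND6 were measured alone, and neither had a limma p under 0.05 against control. ND5 read 12.52, 11.91 and 11.59 in control, 12.21, 12.35 and 12.24 at 100 µg/ml and 11.76, 11.86 and 12.18 at 250 µg/ml, so that the arrays at 250 µg/ml lay below those at 100 µg/ml and both overlapped the controls. Among the controls ND5 was the highest on replicate 1, where most nuclear subunits were the lowest. ND6 did not share this order, with 10.51, 10.78 and 10.32 on control replicates 1, 2 and 3. Of 11 further assembly genes 0 passed at either dose. TMEM126B, a partner of NDUFAF1, differed by 0.55 and 0.61 (limma adjusted p = 0.307 and 0.224). It read 5.65, 5.98 and 6.30 in control and 6.73, 6.48 and 6.54 at 250 µg/ml, with no overlap. AIFM1, which imports subunits through its partner CHCHD4 and also acts in cell death, differed by 0.42 and 0.82 (limma adjusted p = 0.535 and 0.230), again with no overlap at 250 µg/ml. TMEM186, another partner of NDUFAF1, had larger differences than TMEM126B in the other direction at the lower dose, -0.75, and at the higher, -0.73 (limma adjusted p = 0.391 and 0.364). It read 5.08, 6.65 and 5.86 in control and 5.26, 5.08 and 5.08 at 250 µg/ml, with overlap. Of 6 makers of iron-sulfur clusters and 6 transcription regulators 0 passed at either dose. The cysteine desulfurase NFS1 differed by 0.54 at 250 µg/ml and TFAM, the packaging factor of mitochondrial DNA, by 0.49 at 100 µg/ml (limma adjusted p = 0.270 and 0.330). PPARGC1A, a coactivator of mitochondrial genes, differed by -0.60 and -0.28 (limma adjusted p = 0.549 and 0.781).

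Markers of the line were checked beside these values. Of 16 listed symbols for markers of retinal pigment epithelium, among them PMEL and its former name SILV, 13 were measured. RPE65, BEST1 and TTR lay below the lower quartile of all genes on every array, while MITF, OTX2, TYRP1, PMEL, KRT8, KRT18, LRAT and MERTK lay above it on every array. The mean level of the list was 5.34 to 5.74 on control arrays, 5.08 to 5.35 on those of the lower dose and 5.07 to 5.36 on those of the higher. Of 12 markers of other cells 10 were measured, and THY1, PECAM1, VWF, CDH5 and PTPRC lay below the lower quartile on every array, while COL1A1, PDGFRB, CD14 and CD3E lay above it. That list's mean was 3.44 to 3.91 in control and 3.38 to 3.51 at each dose. The part of these shifts in the members' values was not tested.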

How the data were processed

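The authors deposited log2 values of an Affymetrix exon array, with 1 value for each probe set that summarises a transcript. RMA, Partek and genome build hg18 are named, per the submitters' processing notes, without versions or settings. RMA normalizes arrays together, so a change in total RNA per cell is hidden. Of 17629 probe sets, 14378 named 1 gene, and symbols were updated through a RefSeq table (assembly GRCh38.p14) for all but 28. Where a gene had several probe sets the one with the highest mean was used, which no member needed, and 14207 genes were tested. No detection calls were used.

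Groups were fitted with limma 3.58.1 in R 4.3.3, with 1 mean per group, default moderation and Benjamini-Hochberg adjustment at 0.05. Fits were tested on simulated data. Members and lists were chosen with earlier results of these data known. Members described singly were the 5 with the smallest p in each direction of each comparison, and NDUFV1, NDUFS3, NDUFA9, NDUFAF1, ACAD9, ECSIT and TIMMDC1 whatever their values. Others with a value of their own were named after their values were seen.

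Deviations from the group means of arrays with the same number correlated at 0.603, 0.443 and 0.682 between the doses. The numbers were taken to pair the doses where arrays of the same number are compared, from the data and not from the labels. The main fit did not pair them, so its SEs and p-values between the doses leave this out. Of the fits only the replicate block used the numbers. Against control the correlations ran from -0.142 to 0.265. A replicate block and 18 other alternatives were fitted.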

Additional observations from a re-analysis of the deposited data

How the results depend on the processing

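No member passed the adjusted threshold in any comparison under any of the 19 alternatives: 9 fits without 1 array, and 10 with other models, scalings, filters or probe sets. With the replicate block 0 of 39 members passed in each comparison. At 250 µg/ml that fit gave 6 members an unadjusted p under 0.05, with NDUFB9 and NDUFV1 added to the 4 named. Of these 5 were higher and 1 lower, beside 1431 and 1338 of 14207 genes. Between the doses that fit added NDUFV1 to NDUFA5, both lower, beside 263 genes higher and 204 lower. The smallest adjusted p of any member over the alternatives was 0.0866 at 100 µg/ml, 0.061 at 250 µg/ml and 0.141 between the doses. NDUFAF1, NDUFAF6, TIMMDC1 and NDUFA12 at 250 µg/ml had an unadjusted p under 0.05 in 19 of 19 alternatives, NDUFA12 at 100 µg/ml in 18, NDUFAF1 at 100 µg/ml in 16 and NDUFA5 between the doses in 10. Without control replicate 3, 10 members at 250 µg/ml were higher and 1 lower at that limit, beside 1538 and 1106 of 14207 genes. Without control replicate 1, 4 were higher and 7 lower, beside 1076 and 1360 of 14207 genes. Leaving out 1 array at a time, the median change ran from -0.12 to 0.12 at 100 µg/ml and from -0.18 to 0.23 at 250 µg/ml for subunits, and from 0.02 to 0.30 and from 0.10 to 0.45 for assembly factors. Between the doses it ran from -0.05 to 0.11 for subunits and from 0.02 to 0.07 for assembly factors. The signs of differences, none of them called, turned with single arrays. When control replicate 1 was left out, 11 of 39 members turned at 100 µg/ml and 9 of 39 at 250 µg/ml, all from higher to lower. Leaving out any other array turned 2 to 6, 1 to 5 and, between the doses, 4 to 9 of 39. Of the members that the naming rule takes in each comparison, these turned. Without 1 array the ranges at 100 µg/ml were -0.12 to 0.22 for NDUFS3, -0.00070 to 0.30 for TIMMDC1, -0.33 to 0.024 for ECSIT and -0.23 to 0.040 for ACAD9. At 250 µg/ml they were -0.34 to 0.036 for ECSIT and -0.28 to 0.053 for NDUFS3. Between the doses they were -0.11 to 0.16 for ACAD9, -0.19 to 0.16 for ECSIT, -0.031 to 0.54 for NDUFAF1 and -0.12 to 0.051 for NDUFA9. With array weights NDUFV1 at 100 µg/ml was at 0.012. ECSIT between the doses was at -0.019 with array weights, -0.012 with arrays centred on their medians and -0.017 with quantile normalization repeated. It was at -0.062 when the arrays numbered 3 were left out at each dose. The cause of these turns was not tested. The number of arrays and the spread among the controls limit the precision.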

Other observations

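A further 17 probe sets name a symbol of the rule together with another gene, so their values cannot be given to either. In 2 of them the symbol is not a complex I gene but the divergent transcript NDUFA6-DT or the pseudogene NDUFAF4P1. In a test of 16612 features, the 14207 genes and 2405 probe sets that name several genes, 0 of these 17 passed in any comparison by limma with Benjamini-Hochberg adjustment. At an unadjusted p under 0.05 there was 1 at 100 µg/ml, 1 at 250 µg/ml, both lower than control, and 0 between the doses. Of the 14207 genes in this fit, 991 were higher and 1087 lower at that limit at 100 µg/ml. At 250 µg/ml 1239 were higher and 1121 lower, and between the doses 140 and 121. Differences ran from -0.62 to 0.20 at 100 µg/ml and from -0.61 to 0.35 at 250 µg/ml. The probe set of NDUFS1, the largest of the core subunits, with the pseudogene GCSHP3 differed by 0.20 and 0.24. That of NDUFA3 and TFPT differed by -0.62 and -0.61, with adjusted p-values of 0.453 and 0.425. It read 5.13, 6.55 and 6.22 in control, 4.86, 5.39 and 5.77 at 100 µg/ml and 5.39, 5.27 and 5.40 at 250 µg/ml, so that control replicate 1 lay among the condensate arrays. The probe set of NDUFA13 and TSSK6 with the higher level read 6.60 on control replicate 1 and 8.36 and 8.17 on the others, and that of NDUFS5 and RPL10 read 6.51 beside 8.067 and 8.002. The low control array was thus also seen on these probe sets, which were named after their values were seen. On others control replicate 1 was the highest control. The probe set of TSSK6 and NDUFA13 with the lowest level read 2.98 there beside 2.86 and 2.86, and that of YJEFN3 and NDUFA13 read 4.63 beside 4.57 and 4.36. The order of the control arrays on these 17 was not compared with that of all genes.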
